A study of Mus musculus with 28 samples.

Results

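The step from spermatocyte to round spermatid was followed in GRTH null testes with 7 of the 28 mouse arrays of the series: the 3 whose titles name GRTH KO round spermatids were set against the 4 whose titles name GRTH KO spermatocytes. Each array gave 1 signal for 18193 genes. The null allele (GRTH-/-, KO below) removes gonadotropin-regulated testicular RNA helicase, whose gene is Ddx25. All mice were adult C57BL/6 males, and the germ cell fractions were enriched by centrifugal elutriation, which sorts cells by size, before total RNA was extracted with Trizol. The same step in wild-type (WT) males, with 3 arrays of round spermatids and 4 of spermatocytes, served only to ask which of the KO changes also occur with the helicase present. The labels do not say whether arrays of a group came from separate animals or from pooled testes, so p-values measure the spread between these arrays, which may be technical.

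Spermatocytes are the germ cells that carry out meiosis. They pair and recombine their chromosomes, silence the X and the Y in a separate nuclear body, and store many transcripts for later use. The haploid products, round spermatids, build the acrosome and the flagellum and load the genes for protamines and transition proteins, the small basic proteins that later replace histones on sperm DNA. Ddx25 encodes a DEAD-box helicase of germ cells and Leydig cells that takes part in the nuclear export, storage and translation of germ cell messages. Males without it are sterile, and their round spermatids fail to elongate. The comparison described here asks which changes of the transcriptome between the 2 stages still take place in its absence.

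The promoters of 4 genes are shown first, because the data below bear on them. CREM, an activator of spermatid genes, binds the cAMP response element TGACGTCA, and elements close to it lie before many genes that spermatids switch on. Kif17 (a kinesin whose product shuttles the CREM coactivator), Prm1 (protamine) and Tssk1 (a spermatid kinase) rose between the stages in KO, and Ddx51, a helicase gene, fell. The sequences are RefSeq's for build GRCm38.p6, from 250 bases before to 50 bases after the annotated start, read 5′ to 3′ along the gene; capitals mark the full element in Kif17 and Ddx51 and its variant TGACTTCA, on either strand, in Prm1 and Tssk1.
Kif17 (chr4:138262001-138262300, + strand): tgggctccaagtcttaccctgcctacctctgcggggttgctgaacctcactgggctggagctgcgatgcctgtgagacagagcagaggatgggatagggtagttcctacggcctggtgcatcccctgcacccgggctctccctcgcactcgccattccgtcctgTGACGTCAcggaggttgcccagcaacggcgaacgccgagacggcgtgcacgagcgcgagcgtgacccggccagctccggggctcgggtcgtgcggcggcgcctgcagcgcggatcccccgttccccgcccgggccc
Prm1 (chr16:10796774-10797073, - strand): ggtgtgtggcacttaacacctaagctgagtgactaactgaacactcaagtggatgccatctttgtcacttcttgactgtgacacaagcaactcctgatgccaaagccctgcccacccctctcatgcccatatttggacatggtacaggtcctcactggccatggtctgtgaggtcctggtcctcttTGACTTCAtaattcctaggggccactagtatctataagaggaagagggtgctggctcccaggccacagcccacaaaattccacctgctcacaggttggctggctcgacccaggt
Tssk1 (chr16:17893953-17894252, + strand): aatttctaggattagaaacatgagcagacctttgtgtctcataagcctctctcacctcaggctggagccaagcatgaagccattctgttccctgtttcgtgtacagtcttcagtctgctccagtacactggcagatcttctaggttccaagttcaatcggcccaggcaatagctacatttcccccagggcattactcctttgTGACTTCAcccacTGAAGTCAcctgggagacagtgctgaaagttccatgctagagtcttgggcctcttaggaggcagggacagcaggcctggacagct
Ddx51 (chr5:110653201-110653500, + strand): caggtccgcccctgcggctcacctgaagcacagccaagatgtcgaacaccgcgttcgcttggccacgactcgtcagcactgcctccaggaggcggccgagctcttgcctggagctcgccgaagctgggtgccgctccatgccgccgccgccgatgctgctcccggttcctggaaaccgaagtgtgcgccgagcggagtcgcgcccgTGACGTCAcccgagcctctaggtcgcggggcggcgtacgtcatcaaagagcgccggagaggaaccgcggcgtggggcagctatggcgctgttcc
The first capital lies at -86 from the start in Kif17, -64 in Prm1, -48 in Tssk1 and -44 in Ddx51. The full element was present in 53 of the 1450 genes with a listed promoter (3.66%) that rose at least 2-fold in KO, in 48 of 1362 (3.52%) of those that fell at least 2-fold, in 300 of 7496 (4.0%) of all tested genes, and in 2.03% of the 27025 genes of the table. A gene is counted here when any of its listed promoters holds the element. Searched on both strands, the core TGACG, which the full element contains, was in 31.4% of the risers, 34.7% of the fallers, 36.7% of the tested genes and 23.0% of the table's genes. The variant, added after the Prm1 promoter had been seen, was in 2.55% of the risers, 0.954% of the fallers, 1.35% of the tested genes and 1.79% of the table's genes. A match is a description of the letters in this window and not evidence of binding.

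Ddx25 itself was read first as a check of the labels. Its signal, the brightness of its probe set, was 4596, 4241 and 3865 in KO round spermatids, against 3000, 2990, 3279 and 3048 in KO spermatocytes. WT round spermatids read 15470 to 18440 and WT spermatocytes 13000 to 16790, so that no KO array reached any WT array. No source used here says whether this probe set lies in the deleted stretch of the gene. The remaining KO signal was higher in round spermatids by 0.45 ± 0.07 on the log2 scale (limma, adjusted p = 0.000252), and the WT change was 0.17 (adjusted p = 0.144). The difference between the 2 stage changes was 0.29 ± 0.13 (adjusted p = 0.0741), so it did not pass. It passed with replicate number as a block (0.29, adjusted p = 0.0381), with array weights (0.26, adjusted p = 0.0462) and after quantile normalization (0.86, adjusted p = 3.29e-06), and not on arrays centred on their medians (0.20, adjusted p = 0.299). It also passed without WT spermatocyte array 4 (0.35), WT round spermatid array 1 (0.36) or KO round spermatid array 3 (0.35), so the call for Ddx25 depends on the processing.

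The 7 KO arrays carried the same overall signal, since the authors had scaled each germ cell array to a trimmed mean of 500. Stage changes are given as log2(signal + 16) in round spermatids minus the same in spermatocytes, with the standard error, for the 9097 genes at or above the median signal of the KO arrays; the added 16 understates the change of dim genes. Within a group, arrays 1 and 2 were alike, and so were spermatocyte arrays 3 and 4: the SD of log2 differences between 2 KO arrays was 0.12 to 0.153 within these pairs and 0.2 to 0.226 across them. Arrays record bulk fractions, in which fewer cells of a type and less RNA per cell cannot be told apart. Markers of other cells moved with the stages in both genotypes: summed Leydig cell markers were lower in KO round spermatids than in KO spermatocytes (8990 to 9338, against 24760 to 26850), and macrophage markers were higher (11230 to 12120, against 2460 to 2684), as described at the end.

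Most tested genes still changed between the stages without the helicase. Of the 9097 genes, 7761 (85.3%) passed the threshold, an adjusted p under 0.05 in limma. Of these, 3527 (38.8% of all tested) were higher and 4234 (46.5%) lower in KO round spermatids. At least 2-fold differences were found for 1782 higher genes (19.6%) and 1676 lower ones (18.4%), and the 3 round spermatid arrays lay wholly above the 4 spermatocyte arrays for 3463 genes (38.1%) and wholly below them for 4170 (45.8%). On the same genes, the step in WT gave 7898 that passed (86.8%), 3200 higher (35.2%) and 4698 lower (51.6%). The median gene moved by -0.10 in KO and -0.26 in WT, and each list below can be read against these values. When each array was centred on its own median the KO value was -0.26, and after quantile normalization -0.06.

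The KO step followed the WT step closely, although the 2 comparisons share no array. Across the 9097 genes the stage changes had a Pearson correlation of 0.95, a description over genes that are not independent. Of the 3200 genes higher in WT round spermatids, 2931 (91.6%) were also higher in KO, 44 were lower and 225 did not pass. Of the 4698 lower in WT, 3962 (84.3%) were also lower in KO, 133 were higher and 603 did not pass. Large changes were kept more often: 1749 of the 1760 genes at least 2-fold higher in WT (99.4%) and 2282 of the 2317 at least 2-fold lower (98.5%) had the same call in KO. Those 1760 and 2317 genes were 19.3% and 25.5% of the genes tested.

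**Figure D1:**
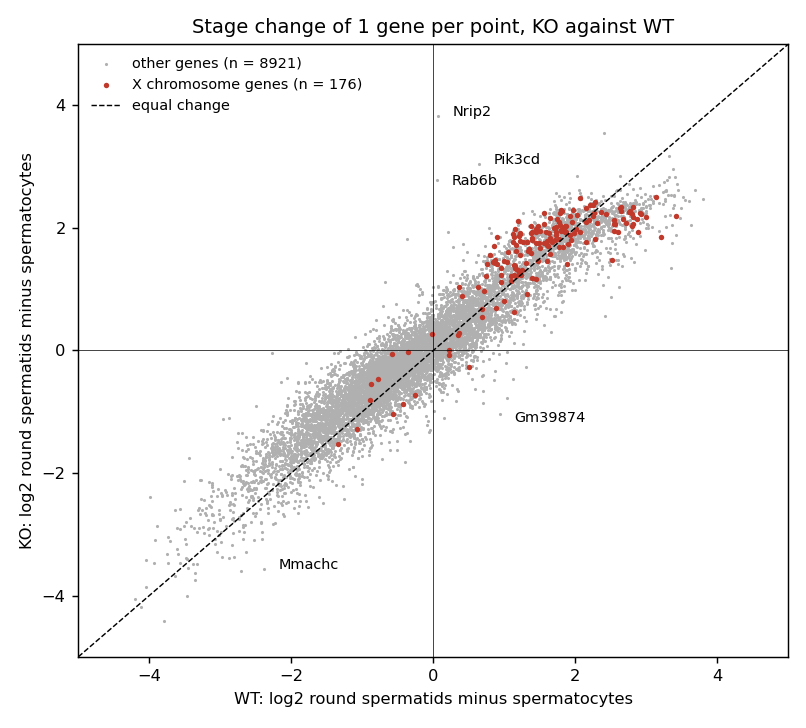
Change from spermatocyte to round spermatid in KO (vertical axis) against the same change in WT (horizontal axis), both as log2 differences, with 1 point per gene for 9097 genes; the 176 X-linked genes are in red and the dashed line marks equal change. Points follow the line (r = 0.95), X-linked genes sit high in both, and Nrip2, Pik3cd and Rab6b stand far above the line.

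On the deposited scale the rises chosen in WT had the same median size in KO, and the falls were smaller. The 1760 genes chosen as at least 2-fold higher in WT had a median change of 1.78 in KO and 1.79 in WT. The 2317 chosen as at least 2-fold lower in WT had a median of -1.24 in KO and -1.56 in WT, and 83.0% of them fell less in KO. Choosing in KO instead gave 1676 lower genes with medians of -1.46 in KO and -1.72 in WT, of which 31.6% fell less in WT. The SD of all changes was 1.15 in KO and 1.29 in WT. Over all tested genes the median difference, KO minus WT, was 0.14 on this scale and 0.05 on centred arrays. The medians of the chosen genes were not computed on another scale, so the contrast of rises and falls holds for the deposited scale only.

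The genes of the last, shape-changing phase of sperm formation rose together in KO. All 7 testis-specific serine kinases tested, enzymes that phosphorylate proteins of the forming sperm, rose, and all of them at least 2-fold (median 2.16). Tssk6 read 6062, 5952 and 5761 in KO round spermatids, against 933.9, 980.1, 961.8 and 989.4 in KO spermatocytes, a change of 2.60 ± 0.05 (adjusted p = 4.09e-09) with a gap of several-fold between the groups. In WT its change was 2.57, on higher signals. The means were 22560 in WT round spermatids and 3764 in WT spermatocytes, against 5925 and 966.3 in KO. The difference from WT did not pass (0.03, limma, adjusted p = 0.847), but after quantile normalization it was 0.56 (adjusted p = 2.64e-06). Tssk3 rose by 2.21 and Tssk1, whose promoter is printed above, by 1.80. Of 20 tested elongating spermatid markers 20 rose, 19 of them at least 2-fold (median 1.93 in KO and 2.02 in WT). Of 17 round spermatid markers 14 rose, 2 fell and 1 did not pass (median 1.80 in KO and 1.65 in WT). The test of the difference found 2 of the 20 elongating markers more positive in KO and 5 more negative. It found 3 and 1 of the 17 round spermatid markers. Centred arrays gave 1 and 6 of 20, and 1 and 1 of 17. Quantile normalization gave 15 and 2 of 20, and 12 and 0 of 17. All 9097 genes gave 2941 and 1245, centred 1975 and 1565, and quantile-normalized 2412 and 1724.

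Among the genes that package sperm DNA, 14 of 18 tested rose, 3 fell and 1 did not pass (median 1.57). Prm1 read 31870, 28980 and 24070 in KO round spermatids, against 14140, 13170, 12300 and 11660 in KO spermatocytes. That is a change of 1.14 ± 0.10 (adjusted p = 7.42e-06), with all round spermatid arrays above all spermatocyte arrays, and WT gave 1.15. The difference did not pass (-0.01, limma, adjusted p = 0.969), but after quantile normalization it was 0.42 (adjusted p = 0.00124). WT means were higher at both stages, at 42850 and 19330, against 28300 and 12820 in KO. The transition protein genes rose as well, Tnp1 by 1.23 ± 0.10 (adjusted p = 2.19e-06) and Tnp2 by 1.53 ± 0.13 (adjusted p = 3.4e-06). Prm2 read 33320, 30680 and 26890 in KO round spermatids, against 10610, 9914, 10160 and 9516 in KO spermatocytes. Its rise of 1.59 ± 0.08 exceeded the WT rise of 0.95 (difference 0.63, adjusted p = 0.00155). Its KO signal was below WT at both stages. The means were 30300 in KO and 38520 in WT round spermatids, and 10050 in KO and 19870 in WT spermatocytes. The spermatid histones H2al2a and H2bl1 rose by 2.47 and 2.28, and H2bl1 rose less than in WT, where it changed by 3.00 (difference -0.72, adjusted p = 2.14e-05). Suv39h2, a histone methyltransferase of the testis, and Cdyl, a chromodomain protein of spermatids, rose by 1.78 and 2.08. The 3 chromatin genes that fell were Rnf8, a ubiquitin ligase that acts on histones (-1.25), Bptf (-0.44) and Morc1 (-0.31).

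Acrosome genes followed. Of 36 tested, 29 rose and 7 fell (median 1.74 in KO and 1.74 in WT), and 22 rose at least 2-fold. The test of the difference gave 5 more positive in KO and 4 more negative. Centred arrays gave 1 and 7, and quantile normalization 19 and 4. All 9097 genes gave 2941 and 1245, centred 1975 and 1565, and quantile-normalized 2412 and 1724. Actl7a, an actin-like protein of the acrosome, read 12480, 11800 and 10990 in KO round spermatids, against 2970, 2781, 2817 and 2880 in KO spermatocytes (2.03 ± 0.06, adjusted p = 6.32e-09), again with no overlap. Acrv1, an acrosomal matrix protein singled out after its values were seen, rose by 1.94, and Izumo2, a relative of the sperm protein that binds the egg, by 1.97. The 3 acrosome genes that fell at least 2-fold were Izumo4 (-1.91), Gopc (-1.69), a Golgi protein needed to form the acrosome, and Tex101 (-1.67), a germ cell surface protein.

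The genes of the tail split by structure. For the fibrous sheath and outer dense fibres, which wrap the flagellum, 22 of 24 rose, Spag5 fell (-0.25) and Odf4 did not pass (0.12). The test of the difference gave 4 of these 24 more positive in KO and 6 more negative. Centred arrays gave 1 and 8, and quantile normalization 14 and 2, to be read against the counts for all genes below. Akap4, the main scaffold of the fibrous sheath and X-linked, read 17630, 16420 and 15290 in KO round spermatids, against 4273, 4282, 4461 and 4400 in KO spermatocytes (1.91 ± 0.06, adjusted p = 8.53e-09). The axoneme, the microtubule core of the flagellum, did not move as 1 group: of 48 genes 23 rose, 18 fell and 7 did not pass (median 0.08), and on arrays centred on their medians 18 rose and 21 fell. Tuba8, an alpha tubulin, rose by 2.62 and Tekt4, a tektin of the axonemal microtubules, by 1.46, whereas Dnah7a, an inner arm dynein, fell by 1.71 on the log2 scale. In the test of the difference, 23 of 48 axoneme genes were more positive in KO than in WT and 3 more negative. On the same deposited scale 32.3% and 13.7% of all tested genes were. Centred arrays gave 15 and 3 of the axoneme genes, and 1975 and 1565 of all 9097 genes. Quantile normalization gave 24 and 3 of the axoneme genes, and 2412 and 1724 of all 9097 genes.

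Enzymes and channels of the spermatid rose in part. Of 28 genes for glycolysis and fuel use 15 rose, 5 fell and 8 did not pass (median 0.34), and 14 rose and 9 fell after quantile normalization. Aldoart2, an aldolase of spermatids, rose by 2.27 and Gapdhs, the sperm form of glyceraldehyde phosphate dehydrogenase, by 1.99. Ion channels and pumps gave 11 higher and 5 lower of 18 (median 0.65), among them Atp1a4, the sodium pump subunit of sperm (2.45), and Catsper1, a pore subunit of the sperm calcium channel (2.05). Of 16 ADAM genes, surface proteins of which several act in sperm migration and egg binding, 12 rose and 2 fell (median 1.17). Kinesins gave 17 higher and 3 lower of 23 (13 and 6 on centred arrays), and Kif17 read 4829, 4925 and 5047 in KO round spermatids, against 1092, 1184, 1078 and 1121 in KO spermatocytes (2.13 ± 0.05, adjusted p = 4.25e-09).

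The regulators named as CREM programme and spermatid transcription factors were mixed. Of 30 tested, 16 rose, 10 fell and 4 did not pass (median 0.29 in KO and 0.46 in WT). Creb3l4, a spermatid transcription factor of the endoplasmic reticulum membrane, rose by 1.92, and Spz1, a testis transcription factor, by 1.93. Crem, singled out after its values were seen, read 7489, 7260 and 6551 in KO round spermatids, against 4557, 4472, 4358 and 4378 in KO spermatocytes, a rise of 0.67 ± 0.06 (adjusted p = 5.61e-06). The gene is known for activator and repressor forms, and its other probe sets went the other way: 2 of them fell, by 1.63 (adjusted p = 1.75e-05) and 0.70 (adjusted p = 0.00263) on the log2 scale, and the mean over its probe sets changed by -0.55. The direction for Crem is therefore that of 1 probe set.

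**Figure D2:**
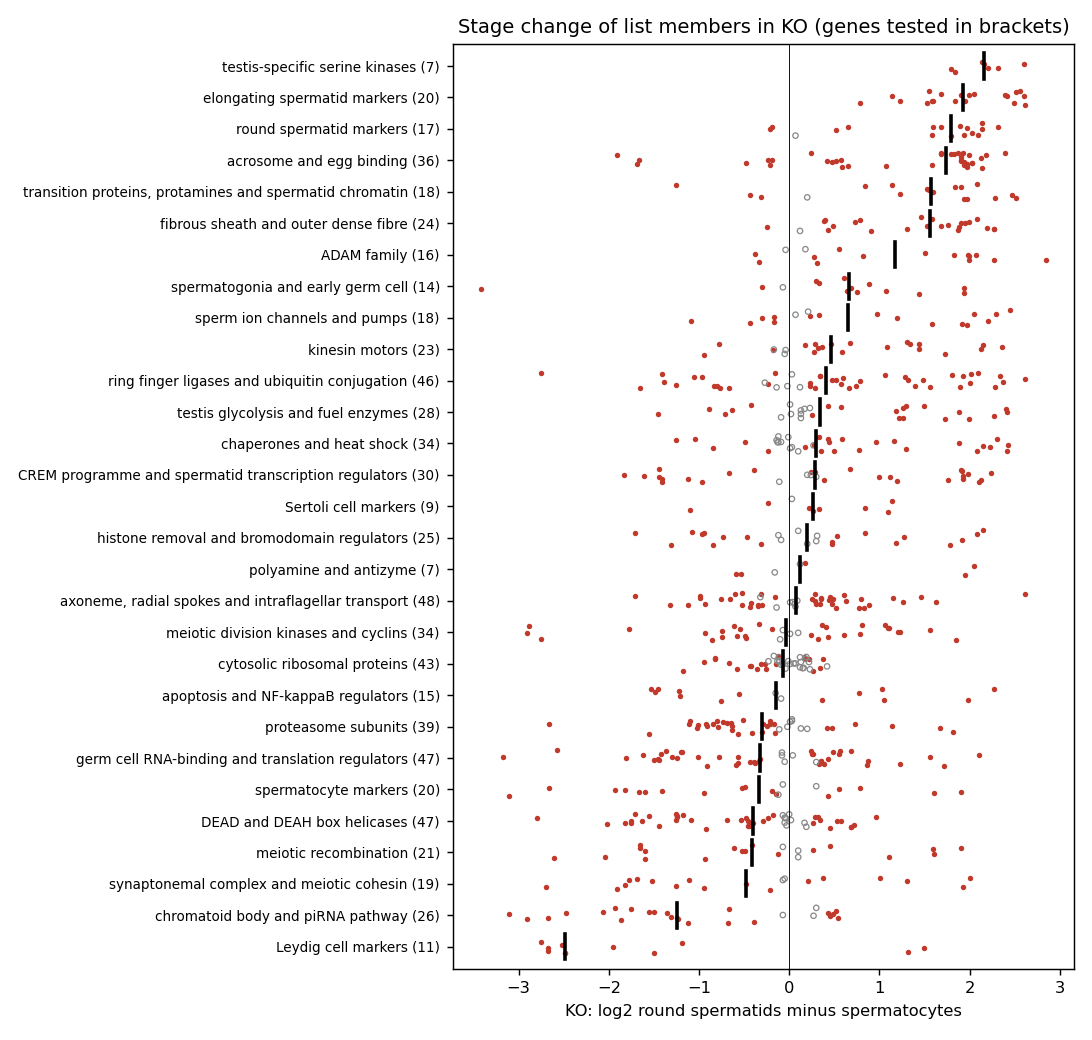
Change from spermatocyte to round spermatid in KO, as log2 differences, for every tested member of each gene list with at least 7 tested members; filled red points passed the threshold, open grey points did not, and the bar is the list's median. The medians run from 2.16 for the testis-specific serine kinases to -2.49 for the Leydig cell markers.

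Genes of chromosome X mostly rose. During meiosis its genes are silenced, and after meiosis part of them is read again. In KO 162 of the 176 tested X-linked genes rose (92.0%, where 38.8% of all tested genes rose), 8 fell and 6 did not pass. Of the 162, 152 rose at least 2-fold. The median X-linked gene changed by 1.82 in KO and 1.53 in WT, whereas the medians of the 19 autosomes lay between -0.25 and -0.03 in KO, with 33.1% to 41.8% of their genes higher. Over all 618 X-linked genes of the array, dim ones included, the median signal was 85.51, 90.74 and 84.78 in KO round spermatids, against 57.32, 56.09, 49.22 and 48.12 in KO spermatocytes, with no overlap.

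**Figure D3:**
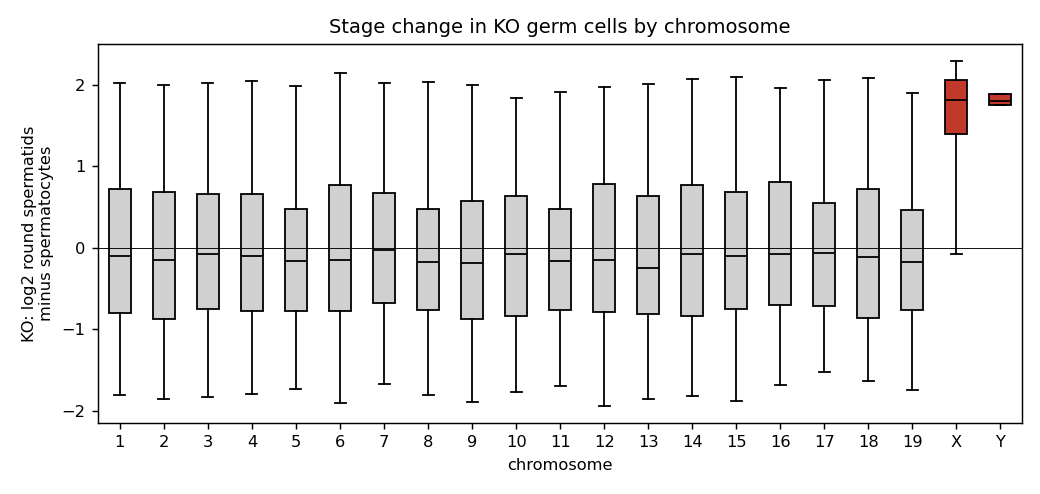
Change from spermatocyte to round spermatid in KO, as log2 differences, by chromosome; boxes span the quartiles with the median as a line, whiskers the 5th to 95th percentiles, and X and Y are in red. The medians of X (1.82) and Y (1.81) lie above all 19 autosomes (-0.25 to -0.03).

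The filter on dim genes bears on this count, since an X-linked gene could pass it through its round spermatid signal alone. Selecting instead the genes at or above the median in KO spermatocytes left 139 X-linked genes, of which 122 rose and 9 fell (median 1.92, against -0.20 for 8938 autosomal genes). Of those autosomal genes 2876 rose and 4278 fell. Selecting on KO round spermatids gave 218, of which 204 rose and 6 fell (median 1.75, against 0.02 for the autosomal genes). Here 3620 of 8859 autosomal genes rose and 3506 fell. With no filter, 346 of 618 rose and 28 fell (median 0.75), where 31.7% and 27.3% of all 18193 genes did (median 0.11).

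Single X-linked genes showed the change on every array. Efhc2, a protein of ciliary microtubules, read 2780, 2798 and 2568 in KO round spermatids, against 501.0, 484.1, 479.8 and 513.0 in KO spermatocytes (2.42 ± 0.05, adjusted p = 4.21e-09). Cul4b, a scaffold of ubiquitin ligases, rose by 2.09 and Tmsb15a, an actin-binding thymosin, by 2.28. Nxf2, a germ cell member of the family that exports messenger RNA from the nucleus, read 1500, 1434 and 1394 in KO round spermatids, against 327.8, 305.6, 314.1 and 342.9 in KO spermatocytes. Its rise of 2.11 ± 0.06 (adjusted p = 5.15e-09) was larger than the WT rise of 1.19 (difference 0.92, adjusted p = 1.16e-05). Scml2, a polycomb protein found on the silenced sex chromosomes, likewise rose by 1.92 in KO and 1.22 in WT (difference 0.69, adjusted p = 4.75e-05). Over the 171 X-linked genes of the difference test, 45 were more positive in KO and 32 more negative (median 0.16, against 0.14 for all genes), but the split turned to 30 and 36 on centred arrays and 30 and 38 (of 175) after quantile normalization. On the deposited scale 32.3% of all tested genes were more positive and 13.7% more negative.

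The 8 X-linked genes that fell were named after their values were seen. They were Tmem35a (-1.52), Tceal9 (-1.29), Pgrmc1 (-1.04), Apln (-0.88), Rps4x (-0.82), Slc25a5 (-0.73), Ndufa1 (-0.54) and Efnb1 (-0.47). Pgrmc1, a haem-binding membrane protein, read 624.6, 655.1 and 762.5 in KO round spermatids, against 1432, 1438, 1380 and 1390 in KO spermatocytes (adjusted p = 1.01e-06). All 8 were at least 2-fold brighter in the 2 KO Leydig cell arrays than in KO spermatocytes (median log2 ratio 3.18), as were 10.1% of all tested genes and 52.5% of the X-linked genes that rose. Leydig markers moved with the stages, as described below, and their part in these 8 falls was not tested.

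All 5 tested Y-linked genes rose: Usp9y (1.90), Eif2s3y (1.89), Uba1y (1.81), Zfy2 (1.76) and Orly (1.13). Eif2s3y, a translation initiation factor needed for early germ cells, read 1654, 1726 and 1749 in KO round spermatids, against 415.3, 470.9, 434.1 and 475.1 in KO spermatocytes (adjusted p = 1.07e-08). Usp9y, a deubiquitinase, rose more than in WT, where it changed by 1.26 (difference 0.64, adjusted p = 0.000785).

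Several X-linked genes have autosomal copies that work while the X is silent, and pairs of these were looked up after the X values had been seen. Of 17 tested copies 7 rose and 6 fell (median 0.09), where 38.8% and 46.5% of all tested genes did. Of 9 tested X-linked parents 6 rose and 2 fell (median 1.22). The pairs named here are a part of these. Pgk1, the X-linked phosphoglycerate kinase, rose by 1.19 and its autosomal copy Pgk2 by 1.18. For the polyadenylation factor, X-linked Cstf2 rose by 2.19, while the autosomal Cstf2t read 2965, 3042 and 2850 in KO round spermatids, against 5196, 5024, 5272 and 5308 in KO spermatocytes. Cstf2t thus fell by 0.81 on the log2 scale (adjusted p = 4.65e-07), and by 1.66 in WT, a difference of 0.85 (adjusted p = 1.18e-06). Timm8a2, an autosomal copy of a mitochondrial import gene, fell further in KO (-2.45) than in WT (-1.80, difference -0.65, adjusted p = 0.00116). Pdha2, the testis pyruvate dehydrogenase subunit, did not pass in KO (-0.09, adjusted p = 0.23) on the deposited scale, but fell on arrays centred on their medians (-0.25, adjusted p = 0.0129) and after quantile normalization (-0.24, adjusted p = 0.000339).

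Among the transcripts that fell were those of the piRNA pathway, which protects the germ line genome with small RNAs, and the chromatoid body, the granule in which Ddx25 protein is also found. Of 26 tested, 18 fell (69.2%, where 46.5% of all tested genes fell), 5 rose and 3 did not pass (median -1.24 in KO and -1.37 in WT), and 15 fell at least 2-fold. Piwil1, the Piwi protein of late meiosis, read 945.5, 1004 and 914.5 in KO round spermatids, against 8734, 8425, 8350 and 7883 in KO spermatocytes. This fall of 3.11 ± 0.06 on the log2 scale (adjusted p = 4.09e-09) was smaller than the WT fall of 3.72 (difference 0.61, adjusted p = 5.58e-05). Tdrd5, a tudor protein of the same pathway, fell by 2.91 in KO and 3.56 in WT (difference 0.65, adjusted p = 8.2e-05), and Tdrd1, singled out after its values were seen, by 1.93 in KO and 3.01 in WT (difference 1.08, adjusted p = 4.09e-06). Tex19.2, another germ line defence gene, fell by 2.48 in KO and 2.61 in WT, a difference of 0.13 that did not pass (adjusted p = 0.174).

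Other DEAD and DEAH box helicases, the family of Ddx25, mostly fell. Of 47 tested, 27 fell and 11 rose (median -0.40 in KO and -0.74 in WT), with 15 falls and 0 rises of at least 2-fold; 7 rose and 28 fell on centred arrays. Ddx39a, an export helicase, fell by 1.82 and Ddx19b, which releases messages at the nuclear pore, by 2.80 on the log2 scale; for Ddx19b the sign of the difference from WT depended on the probe sets used. Ddx51 read 679.9, 689.8 and 773.2 in KO round spermatids, against 2175, 2192, 2300 and 2309 in KO spermatocytes. It fell by 1.63 in KO and by 2.69 in WT (difference 1.06, adjusted p = 4.87e-06), and was singled out after its values were seen. In the test of the difference, 25 of 46 helicase genes were more positive in KO and 2 more negative (median 0.30), where 32.3% and 13.7% of all tested genes were. The count was 17 and 3 on arrays centred on their medians, and 1975 and 1565 for all 9097 genes. After quantile normalization it was 21 and 2, and 2412 and 1724 for all 9097 genes. Eif4a2, the initiation factor helicase, went the other way: it read 2257, 2178 and 2182 in KO round spermatids, against 7658, 6873, 7157 and 7268 in KO spermatocytes. Its fall of 1.71 on the log2 scale exceeded the WT fall of 0.91 (difference -0.80, adjusted p = 9.41e-06).

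Regulators that bind germ cell RNA gave 24 falls and 18 rises among 47 (median -0.32 in KO and -0.73 in WT). Paip1, which joins the poly(A)-binding protein to the initiation machinery, fell by 3.17 in KO and 3.08 in WT. Ptbp2, a splicing repressor of germ cells, read 2736, 2742 and 2842 in KO round spermatids, against 7512, 7340, 7862 and 7455 in KO spermatocytes. It fell less in KO (-1.44) than in WT (-2.15, difference 0.71, adjusted p = 7.85e-06). Of 39 proteasome genes 26 fell and 6 rose (median -0.30). Psma8, the core subunit of spermatocytes, fell by 2.66 on the log2 scale, and Psme3, an activator cap, rose by 1.67, though by 0.40 as the mean over its probe sets. Cytosolic ribosomal protein genes depended on the scaling: of 43, 6 rose and 14 fell on the deposited scale (median -0.07), 0 rose and 23 fell on centred arrays, and 2 rose and 33 fell after quantile normalization.

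Several markers of meiosis fell less without the helicase. Of 20 spermatocyte markers 12 fell, 5 rose and 3 did not pass (median -0.34 in KO and -0.98 in WT). Sycp1, the central rod of the synaptonemal complex that holds paired chromosomes together, read 3181, 3538 and 3352 in KO round spermatids, against 3681, 3608, 3383 and 3465 in KO spermatocytes, and the groups overlapped (-0.07 ± 0.06, adjusted p = 0.254). In WT it fell by 1.12 on the log2 scale, with 1763 to 2038 in round spermatids and 4007 to 4411 in spermatocytes, and the difference between the genotypes was 1.05 ± 0.09 (adjusted p = 2.42e-06). On arrays centred on their medians the KO change was -0.23 (adjusted p = 0.005). Sycp3, of the lateral elements, fell by 0.95 in KO and 1.80 in WT (difference 0.84, adjusted p = 0.000624). Both genes, like Mybl1 and Lef1 in the next lines, were singled out after their values were seen. Mybl1, the transcription factor that drives the meiotic programme, fell by 1.41 in KO and 2.64 in WT (difference 1.23, adjusted p = 1.65e-06). Other members of the list went otherwise. Spo11 fell more in KO (-1.60) than in WT (-1.31, difference -0.29, limma, adjusted p = 0.012). Tex15 rose, by 1.91 in KO and 1.64 in WT. Of the 20 markers 12 were more positive in KO and 2 more negative, where 32.3% and 13.7% of all tested genes were on the deposited scale. Centred arrays gave 11 and 2 of the markers, and 1975 and 1565 of all 9097 genes. Quantile normalization gave 13 and 2 of the markers, and 2412 and 1724 of all 9097 genes.

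Lef1, a transcription factor of the Wnt pathway, differed between the genotypes in round spermatids. It read 1250, 1240 and 1302 in KO round spermatids, against 2647, 2671, 2909 and 2874 in KO spermatocytes. The WT arrays read 289.2, 253.2 and 268.4 in round spermatids and 2015 to 2441 in spermatocytes. The spermatocyte levels were thus of similar size while KO round spermatids stood far above WT ones, and the stage changes of -1.12 in KO and -2.97 in WT differed by 1.84 ± 0.11 (adjusted p = 2.12e-07).

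Kinases, cyclins and checkpoint genes of the meiotic divisions showed the same shift. In KO 15 of 34 rose and 15 fell (median -0.03), while in WT 9 rose and 21 fell (median -0.68). In the test of the difference 25 of 34 were more positive in KO and 0 more negative, where 32.3% and 13.7% of all tested genes were. On centred arrays the counts were 17 and 0, and 1975 and 1565 for all 9097 genes. After quantile normalization they were 21 and 0, and 2412 and 1724 for all 9097 genes. Cks2, a subunit of the cyclin-dependent kinases, fell by 2.91 in KO and 3.16 in WT, and Cdk2, a kinase needed to hold meiotic chromosome ends at the nuclear envelope, by 2.88 in KO and 3.25 in WT. Bub1b, a spindle checkpoint gene singled out after its values were seen, read 1586, 1619 and 1500 in KO round spermatids, against 1847, 1851, 2085 and 2112 in KO spermatocytes. It fell by 0.33 in KO and 1.43 in WT (difference 1.1, adjusted p = 1.5e-06); a dimmer probe set of the gene rose in KO by 0.69 (adjusted p = 0.0493), and the mean over probe sets did not pass in KO (-0.09, adjusted p = 0.355). Ccne1, a cyclin chosen in the same way, read 1086, 932.7 and 1118 in KO round spermatids, against 540.5, 629.7, 369.1 and 402.1 in KO spermatocytes. This was a rise of 1.11 ± 0.17 (adjusted p = 0.000281), while WT gave -0.69 (adjusted p = 0.0749), a difference of 1.80 (adjusted p = 0.0029). The dimmer probe set of Ccne1 did not pass in KO (0.12, limma, adjusted p = 0.293).

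Genes of synapsis and recombination were divided. Of 19 synaptonemal complex and cohesin genes 11 fell and 6 rose (median -0.48 in KO and -1.12 in WT). Rec8, a meiotic cohesin, rose by 2.00 and Smc3, a core cohesin, by 1.93, while Tex12, of the central element, fell by 1.69 on the log2 scale. Of 21 recombination genes 12 fell and 6 rose (median -0.41 in KO and -0.49 in WT). Spo11, which makes the breaks that start recombination, read 2030, 2044 and 2128 in KO round spermatids, against 6152, 5941, 6699 and 6448 in KO spermatocytes (-1.60 ± 0.06, adjusted p = 1.66e-08). Its fall was smaller in WT (-1.31, difference -0.29, limma, adjusted p = 0.012). Mlh3, of the crossover machinery, fell by 2.04 in KO and 2.84 in WT (difference 0.80, adjusted p = 0.000659). In the test of the difference 8 of 18 synapsis genes were more positive in KO and 2 more negative, and 8 and 1 of 22 recombination genes. On the same deposited scale 32.3% and 13.7% of all tested genes were. On centred arrays the counts were 5 and 2 of 18 and 6 and 2 of 22, and 1975 and 1565 of all 9097 genes. After quantile normalization the counts were 7 and 2 of 18 and 6 and 3 of 23, and 2412 and 1724 of all 9097 genes.

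**Figure D4:**
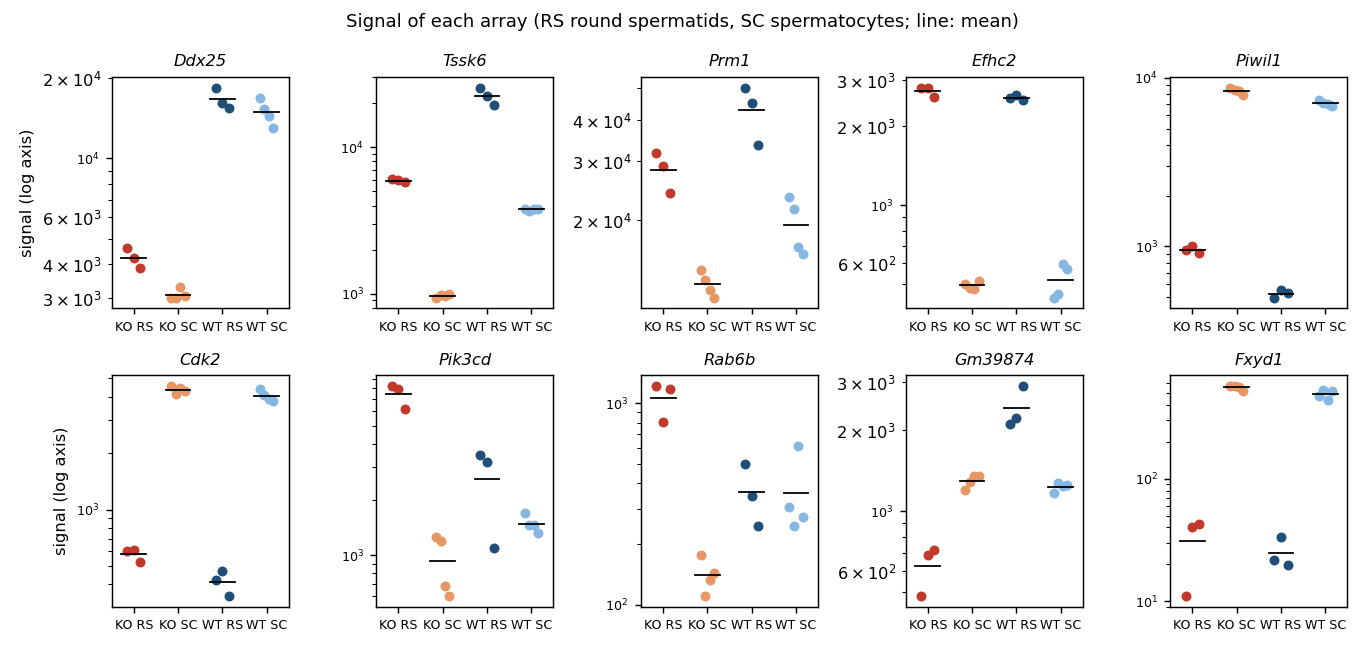
Signal of 10 genes on each array (log axis), with KO round spermatids, KO spermatocytes, WT round spermatids and WT spermatocytes from left to right and a line at each group mean. Tssk6, Prm1 and Efhc2 rise and Piwil1 and Cdk2 fall in both genotypes, Pik3cd and Rab6b rise past the threshold in KO but not in WT, and Gm39874 falls in KO and rises in WT.

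The 10 largest rises and 10 largest falls in KO, ranked among genes whose groups did not overlap, were mostly shared with WT. The largest falls were those of uncharacterised testis genes and of a few known ones. 4933404O12Rik read 217.4, 203.3 and 205.2 in KO round spermatids, against 4922, 4917, 4827 and 4534 in KO spermatocytes (-4.42 ± 0.05, adjusted p = 1.92e-09; -3.79 in WT). Kbtbd6, an adaptor of ubiquitin ligases, fell by 4.18, Exoc8, a subunit of the exocyst that tethers vesicles, by 4.0, and Zfp389, a zinc finger gene, by 3.86 on the log2 scale. Mmachc, an enzyme of vitamin B12 handling, read 147.0, 154.1 and 136.5 in KO round spermatids, against 1898, 1884, 2054 and 1818 in KO spermatocytes, and fell more in KO (-3.58) than in WT (-2.39, difference -1.19, adjusted p = 2.73e-06). Fxyd1, a regulator of the sodium pump, fell by 3.68 on the log2 scale and was 9.6 times as bright in the KO Leydig cell arrays as in KO spermatocytes; the other 9 of these genes were dimmer there (ratios 0.413 to 0.855).

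Among the 10 largest rises, Klc3, a kinesin light chain of the sperm tail, read 766.1, 818.0 and 810.7 in KO round spermatids, against 110.4, 89.56, 97.42 and 97.56 in KO spermatocytes. It rose by 2.83 ± 0.07 in KO and by 3.40 in WT (difference -0.57, adjusted p = 0.00357). Trim42, a tripartite motif gene, rose by 2.84 in KO and 2.62 in WT. Fen1, the flap endonuclease of DNA replication and repair, read 3148, 2391 and 8200 in KO round spermatids, against 442.7, 163.3, 360.8 and 416.3 in KO spermatocytes. Its rise of 3.54 ± 0.45 (adjusted p = 7.26e-05) went with a wide spread, and its difference from WT (1.14) did not pass (adjusted p = 0.356).

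In 3 of these 10 genes the rise was far larger than in WT. Nrip2, a nuclear receptor-interacting protein, read 2996, 3620 and 906.0 in KO round spermatids, against 224.0, 250.3, 79.19 and 74.78 in KO spermatocytes. Array 3 was well below the other round spermatid arrays, yet above every spermatocyte array. The change was 3.82 ± 0.56 in KO (adjusted p = 0.000176) and 0.06 in WT (adjusted p = 0.881), a difference of 3.75 (adjusted p = 0.0013). Without KO round spermatid array 3 the KO change was 4.43 and the difference 4.37. Its dimmer probe sets changed in KO by 1.0 (limma, adjusted p = 0.00696) and -0.08 (adjusted p = 0.825). The size of the rise is therefore that of 1 probe set.

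Pik3cd, a catalytic subunit of phosphoinositide kinase, read 8232, 7960 and 6161 in KO round spermatids, against 1258, 1192, 677.1 and 599.3 in KO spermatocytes. Its KO change was 3.04 ± 0.27 (adjusted p = 5.18e-06) and its WT change 0.64 (adjusted p = 0.121), a difference of 2.40 (adjusted p = 0.00146). WT round spermatids read 3500, 3177 and 1091 and WT spermatocytes 1316 to 1694, so the WT groups overlapped. As the mean over its probe sets Pik3cd changed by 0.80 in KO, with a difference of 0.74 (adjusted p = 0.002). Rab6b, a small GTPase of Golgi transport, read 1218, 809.7 and 1175 in KO round spermatids, against 176.6, 110.2, 132.0 and 143.6 in KO spermatocytes. It rose by 2.78 ± 0.17 (1.27 as the mean over its probe sets), and WT gave 0.05, a difference of 2.73 (adjusted p = 0.000139).

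The test of the difference itself passed for 4186 of 9097 genes (46.0%), 2941 more positive in KO (32.3%) and 1245 more negative (13.7%), but at least 2-fold differences were few, at 143 (1.57%) and 97 (1.07%). The split depended on the scaling: 70.3% of the genes that passed were more positive in KO on the deposited scale, 55.8% on arrays centred on their medians and 58.3% after quantile normalization. The median difference was 0.14 on the deposited scale and 0.05 on centred arrays. With similar arrays averaged, which leaves fewer values, 1746 genes passed. Of the 143 genes with a positive 2-fold difference, 138 had the larger gap between KO and WT in round spermatids (median 1.13, against -0.01 in spermatocytes), and of the 97 negative ones 94 did (median -1.45, against -0.22 in spermatocytes). These genes were chosen on the same values, and no such share was counted over all tested genes, so the counts only describe the chosen genes.

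Besides Nrip2, Rab6b and Pik3cd, the most positive differences were those of Rrp9 and Gadd45b. Gadd45b, a stress-response gene, read 712.3, 722.6 and 670.5 in KO round spermatids, against 217.5, 156.8, 187.2 and 193.3 in KO spermatocytes. It rose by 1.82 ± 0.10 (adjusted p = 1.65e-07), with -0.38 in WT (adjusted p = 0.121) and a difference of 2.19 (adjusted p = 4.87e-06). Another of its probe sets fell in KO by 0.35 (adjusted p = 0.0441), and the mean over probe sets gave 0.48. Rrp9, a protein of ribosomal RNA processing, did not change in a way that passed in KO (-0.05 ± 0.13, adjusted p = 0.742), with 439.0, 391.5 and 567.6 in KO round spermatids, against 498.4, 464.1, 418.0 and 530.9 in KO spermatocytes. In WT it fell by 2.28 on the log2 scale, and the difference was 2.23 (adjusted p = 0.011). WT round spermatid array 3 read 347.5 where the other two read 68.06 and 34.28, and the difference was 3.06 without array 3 and 1.63 without array 2, the 34.28; it did not pass with similar arrays averaged (1.89, adjusted p = 0.172).

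Of the genes with the 5 most negative differences, 4 rose in both genotypes and rose more in WT. Slc5a9, a sugar transporter, rose by 1.51 in KO (from the fit of all genes, being dim in KO) and by 3.71 in WT, a difference of -2.20 (adjusted p = 2.47e-05). Vmn1r44, a pheromone receptor gene, rose by 1.34 in KO and 3.34 in WT (difference -2.0, adjusted p = 0.00288), and Efcab1, a calcium-binding protein of motile cilia, by 1.18 in KO, also from the fit of all genes, and 2.98 in WT (difference -1.80, adjusted p = 3.6e-06). Plekha3, which carries a lipid-binding domain, read 388.8, 396.1 and 387.2 in KO round spermatids, against 259.7, 250.1, 270.4 and 262.6 in KO spermatocytes. It rose by 0.56 in KO and 2.41 in WT (difference -1.85, adjusted p = 4.6e-07); another probe set fell in KO by 1.39 (adjusted p = 7.73e-05), and the mean over probe sets did not pass in KO (0.03, adjusted p = 0.856).

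Opposite calls in the 2 genotypes were rare. They were found for 177 genes, 133 of them higher in KO and lower in WT, and for 0 genes was the change at least 2-fold in both. The gene nearest to that, Gm39874, read 483.0, 685.4 and 715.5 in KO round spermatids, against 1198, 1280, 1351 and 1346 in KO spermatocytes. WT round spermatids read 2100, 2205 and 2910 and WT spermatocytes 1171 to 1272. It thus fell in KO (-1.04 ± 0.13, adjusted p = 5.13e-05) and rose in WT (0.94, adjusted p = 3.23e-05), a difference of -1.98 (adjusted p = 3.51e-06). Nat9, an acetyltransferase gene singled out after its values were seen, read 633.7, 649.0 and 706.9 in KO round spermatids, against 1166, 1177, 1249 and 1257 in KO spermatocytes. It changed by -0.86 in KO and 0.70 in WT (difference -1.56 ± 0.08, adjusted p = 7.65e-08).

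Ubiquitin ligases, chaperones and cell death genes moved in both directions. Of 46 ring finger and ubiquitin conjugation genes 28 rose and 13 fell (median 0.41); Rnf133, a spermatid ligase of the endoplasmic reticulum, rose by 2.37 in KO and 3.03 in WT (difference -0.67, adjusted p = 5.23e-05). Of 34 chaperone genes 19 rose and 5 fell (median 0.30), against 15 and 10 on centred arrays and 15 and 12 after quantile normalization. Hspa1l, a spermatid heat shock protein, read 5996, 5767 and 5966 in KO round spermatids, against 1063, 1126, 1051 and 1081 in KO spermatocytes, and rose by 2.43 in KO and 3.09 in WT (difference -0.66, adjusted p = 2.54e-05). Of 15 apoptosis and NF-kappaB genes 6 rose and 7 fell; the death-promoting Bcl2l11 rose by 2.27 and Bcl2l14, a relative of it, by 1.98. Of 25 genes for histone removal and bromodomain proteins 10 rose and 9 fell. Of 7 polyamine genes 3 rose and 2 fell (2 and 3 on centred arrays), with Oaz3, the spermatid antizyme, at 1.95 and Azin2, an antizyme inhibitor, at 2.05.

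The fractions carried the markers of their labelled cells, but not alone. Summed over 17 round spermatid markers, the signal was 143600 to 154600 in KO round spermatids, against 58060 to 61480 in KO spermatocytes. Over 20 spermatocyte markers it was 123300 to 146600 in KO round spermatids and 133800 to 160800 in KO spermatocytes, so these sums overlapped. Elongating spermatid markers summed to 287500 to 352800 in KO round spermatids and 101400 to 110100 in KO spermatocytes; WT fractions had 484800 to 655200 in round spermatids and 169100 to 201500 in spermatocytes. The part that spermatid RNA in the spermatocyte fraction, or spermatocyte RNA in the round spermatid fraction, has in the stage changes was not tested.

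**Figure D5:**
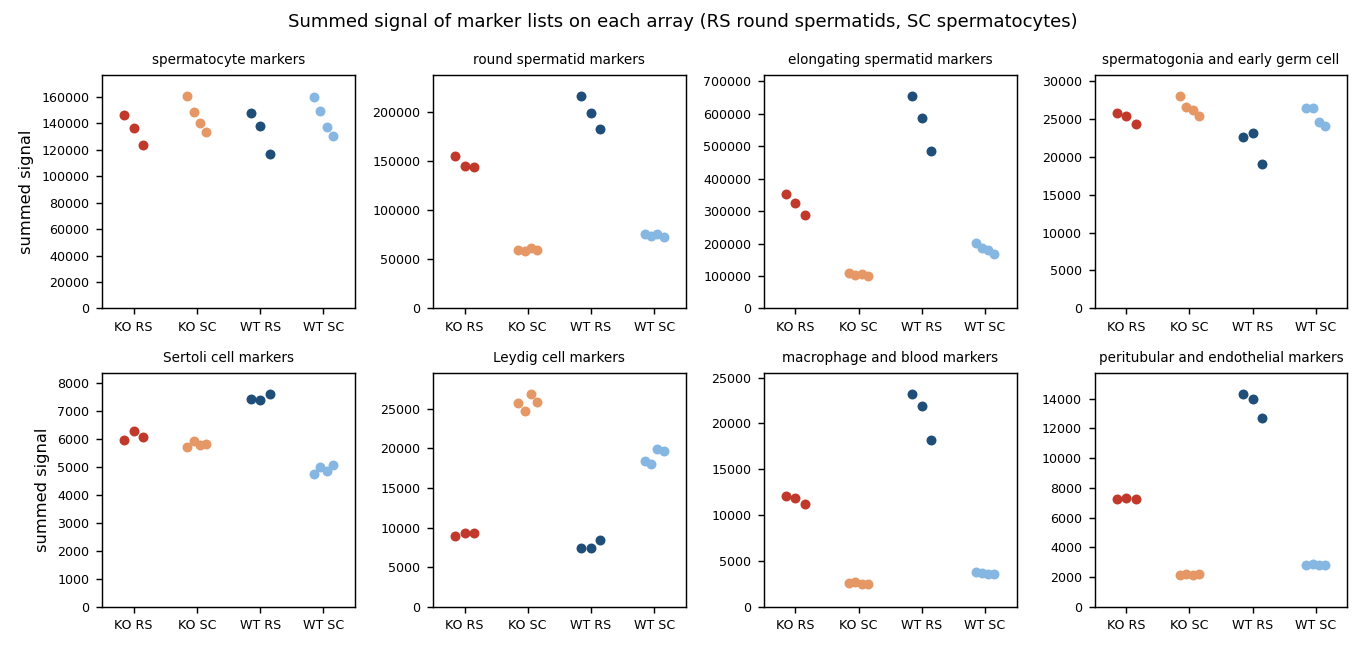
Summed signal of 8 marker lists on each array, from 0, with KO left of WT and round spermatids left of spermatocytes. Leydig markers are lower and macrophage and peritubular markers higher in round spermatids in both genotypes. In KO round spermatids most of the macrophage sum is Aif1 and most of the peritubular sum is Actg2.

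Markers of somatic cells moved with the stages too. Of 11 tested Leydig cell markers 9 fell at least 2-fold (18.4% of all tested genes did) and 2 rose (median -2.49 in KO and -1.93 in WT). Their sum over 14 genes was 8990 to 9338 in KO round spermatids, against 24760 to 26850 in KO spermatocytes, and 7462 to 8446 in WT round spermatids, against 18090 to 19940 in WT spermatocytes. Cyp17a1, a steroid-producing enzyme singled out after its values were seen, read 602.7, 499.8 and 466.1 in KO round spermatids, against 3393, 3356, 3893 and 3718 in KO spermatocytes (-2.75 ± 0.09, adjusted p = 1.36e-08). Hsd3b1, of the same pathway, fell by 2.52 on the log2 scale, Fabp3, a fatty acid carrier, by 2.68, and Ptgds, a prostaglandin synthase, by 2.49; Scarb1, a cholesterol receptor (1.32), and Igf1, a growth factor (1.49), rose.

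Macrophage markers were higher in the round spermatid fraction. With no filter on dim genes 13 of 17 rose and 0 fell (31.7% and 27.3% of all 18193 genes did), and their sum was 11230 to 12120 in KO round spermatids, against 2460 to 2684 in KO spermatocytes. Most of that sum was Aif1, with 7793 to 8750 in KO round spermatids and 1880 to 2000 in KO spermatocytes. The complement gene C1qa, a macrophage product singled out after its values were seen, read 222.7, 233.4 and 223.0 in KO round spermatids, against 5.545, 4.204, 2.591 and 2.443 in KO spermatocytes (3.62, adjusted p = 8.2e-07; 3.22 in WT). Lyz2, a lysozyme, rose by 2.87 in KO and 2.54 in WT, and Csf1r, the receptor for the macrophage growth factor, by 2.52 in KO and 2.03 in WT, both chosen in the same way. Of 16 peritubular and endothelial markers, also with no filter, 9 rose and 0 fell, among them Actg2, a smooth muscle actin (2.24). Their sum was 7238 to 7301 in KO round spermatids, and most of it was Actg2, with 5254 to 5349. In that group 12 of the 16 were dimmer than the median gene.

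Sertoli markers summed to 5973 to 6303 in KO round spermatids and 5731 to 5938 in KO spermatocytes; of 9 tested, 6 rose and 2 fell (3 and 2 on centred arrays). In WT they summed to 7406 to 7614 in round spermatids and 4757 to 5081 in spermatocytes, and 6 of 8 had a more negative change in KO (13.7% of all tested genes did). Among the 2 that fell was Clu, a secreted chaperone abundant in Sertoli cells. It read 618.4, 554.0 and 655.1 in KO round spermatids, against 1365, 1349, 1258 and 1319 in KO spermatocytes (-1.1 ± 0.07, adjusted p = 4.39e-07). In WT it changed by 0.14 (adjusted p = 0.239), and the difference was -1.24 (adjusted p = 1.22e-05). Cst12, among the 6 that rose, changed by 1.1 in KO and 1.96 in WT (difference -0.86, limma, adjusted p = 0.0002). Of 14 tested spermatogonial and early germ cell genes 11 rose and 2 fell (median 0.66 in KO and 0.36 in WT). Dmrt1, a transcription factor that keeps spermatogonia from entering meiosis, rose by 1.94 in KO and 1.12 in WT (difference 0.82, adjusted p = 5.47e-05), and Id4, an inhibitor of transcription factors marking spermatogonial stem cells, fell by 3.42 on the log2 scale in KO, with 477.6 to 602.1 in round spermatids and 5443 to 6396 in spermatocytes. No list's sum was near 0 in any group, and the part such cells have in the stage changes, or in the differences between the genotypes, was not tested.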

How the data were processed

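RNA of elutriated germ cells was hybridised to 1-colour mouse arrays. The authors deposited a linear signal intensity for each of 45101 probe sets, made with GCOS per the submitters' processing notes; no source used here gives its version or settings. The 14 germ cell arrays had been scaled by the authors to a trimmed mean of 500 (0.02 trimmed at each end), as tested on the values, and this scale was kept.

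Of the probe sets 34945 had 1 gene symbol, 932 several and 9160 none, and 64 controls were left out; 34741 matched RefSeq by Entrez identifier. For each of 18193 genes the probe set with the highest mean over 28 arrays stood for the gene (9010 had several). The deposited intensities were transformed to log2(signal + 16) and tested with limma 3.58.1 (lmFit, eBayes) in R 4.3.3 (package data.table, version 1.17.8), two-sided, with Benjamini-Hochberg adjustment and a threshold of 0.05, over genes at or above the median signal of the fitted arrays. The KO and WT steps were fitted alone (7 arrays each), and their difference as the interaction over 14 arrays. "With no filter" means all 18193 genes. Data were also simulated with independent noise on every array, and 9097 genes were tested. Only 100 of the brighter genes were altered at each size of change. Changes of 0.5 and 1.0 log2 were recovered for 83.0% and 98.0% of altered genes in the KO step, with 0.0562% false calls. In the difference 61.0% and 96.0% were recovered, with 0.0562% false calls. In the real arrays 85.3% of tested genes passed in the KO step and some arrays of a group were alike, so these rates need not hold for them. The number of arrays limits the precision. Python 3.11.15, pandas 2.3.3, numpy 2.4.6 and matplotlib 3.10.9 made the tables and figures.

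Members and lists were chosen with earlier results of these data known. Genes were named by rule: the 10 largest rises and falls past the threshold with no overlap of groups, the 5 most positive and negative differences, Ddx25, and from each list the 3 members of smallest adjusted p, with Prm1, Prm2, Tnp1 and Tnp2 always; the text names a part of these, and says where a gene was chosen otherwise.

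Arrays with the same number deviated together: correlations between stages were 0.206, 0.193 and 0.204 in KO and 0.249, 0.19 and 0.177 in WT, over the minimum of 0.1. Arrays with other numbers correlated as much in places: 0.249 between KO round spermatid array 3 and KO spermatocyte array 4, 0.272 between the same arrays of WT, and 0.145 between WT round spermatid array 2 and WT spermatocyte array 1. The data thus also pair arrays 1 and 2 against 3 and 4, and the number is not singled out; the labels state no pairing. A blocked value is printed only beside a call that the block changes.

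Alternatives were the offset (1, 64), the filter, quantile normalization, centring on medians, the choice of probe sets, the block, averaging of similar arrays, array weights, the arrays in the fit and leaving out each array.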

Additional observations from a re-analysis of the deposited data

Results flagged for a closer look

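Among the named genes, 262 groups of 4 arrays were examined for an array far from its group, and 6 held one; chance alone gives about 1 in 20 such groups. The ratio is the gap to the nearest array over the group's range, set against Dixon's 95% critical value. Nrip2 had 1 low WT spermatocyte array (130.2, others 282.4 to 312.6, ratio 0.881), and Adam6b 1 high KO spermatocyte array (449.5, others 290.5 to 307.3, ratio 0.872). Fxyd1 had 1 low KO spermatocyte array (518.3, others 565.3 to 572.0, ratio 0.88), and Slc5a9 1 low WT spermatocyte array (60.19, others 114.8 to 120.7, ratio 0.925). In KO spermatocytes Spz1 had 1 high array (5084, others 4864 to 4878, ratio 0.933) and Tex19.2 1 low array (2051, others 2191 to 2220, ratio 0.832).

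Of the 131 named genes, 73 had a stage change that differed between KO and WT by limma's interaction (adjusted p under 0.05), 37 more positive in KO and 36 more negative. Over all tested genes 4186 of 9097 (46.0%) did. Some named genes were chosen for this difference or after their values were seen, so their count is partly set by that choice. Of the differences among named genes that passed, 29 no longer passed when similar arrays were averaged (Rec8, Tex12, Tssk3, Kif17 and Catsper1 among them). After quantile normalization 13 no longer passed and 3 others turned sign, of which only Cby2 passed. On arrays centred on their medians 6 no longer passed. The values are log2 differences, KO minus WT, and no explanation was tested for any of them.

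The positive differences of over 1 were those of Nrip2 (3.75), Rab6b (2.73), Pik3cd (2.40), Rrp9 (2.23), Gadd45b (2.19), Lef1 (1.84), Ccne1 (1.80), Mybl1 (1.23), Bub1b (1.1), Tdrd1 (1.08), Ddx51 (1.06) and Sycp1 (1.05). Meiotic, piRNA and RNA-binding genes with smaller ones were Sycp3 (0.84), Mlh3 (0.80), Ptbp2 (0.71), Tdrd5 (0.65), Piwil1 (0.61), Atr (0.56), Tex12 (0.54), Smc3 (0.53), Rec8 (0.52), Cdk2 (0.37) and Tex15 (0.27). Sex-linked genes and an autosomal copy were Nxf2 (0.92), Cstf2t (0.85), Scml2 (0.69), Usp9y (0.64) and Uba1y (0.26). The others were Adam6b (0.83), Dmrt1 (0.82), Prm2 (0.63), Id4 (0.62), Csf1r (0.49), Fabp3 (0.42), Dnah7a (0.38), Catsper1 (0.37) and Tekt4 (0.34).

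The negative differences beyond -1 were those of Slc5a9 (-2.20), Vmn1r44 (-2.0), Gm39874 (-1.98), Plekha3 (-1.85), Efcab1 (-1.80), Nat9 (-1.56), Clu (-1.24) and Mmachc (-1.19). Spermatid genes followed with H2bl1 (-0.72), Rnf133 (-0.67), Hspa1l (-0.66), Azin2 (-0.65), H2al2a (-0.60), Klc3 (-0.57), 1700042G07Rik (-0.50), Lelp1 (-0.43), 1700009J07Rik (-0.41), Atp1a4 (-0.39), Psme3 (-0.39), Tssk3 (-0.36), Kif17 (-0.27) and Cby2 (-0.25). Among genes that fell in KO were 1700029M20Rik (-0.88), Eif4a2 (-0.80), Timm8a2 (-0.65), 4933404O12Rik (-0.63), Exoc8 (-0.52), Ddx19b (-0.37), Spo11 (-0.29) and 4921525O09Rik (-0.28). Sex-linked genes were Tmsb15a (-0.49), Pgrmc1 (-0.46) and Orly (-0.33), and somatic markers Cst12 (-0.86), Aif1 (-0.46) and Actg2 (-0.28).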

How the results depend on the processing

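The KO count changed by over 1.5 times only through the number of genes tested: with no filter 5768 genes were higher, and with only the brighter of these genes 3926 passed, 1809 higher and 2117 lower. WT behaved likewise, with 5937 higher with no filter, and 4030 passing, 1841 higher and 2189 lower, with the brighter genes. For the difference the brighter genes gave 2516 genes, 1676 more positive, and averaging similar arrays, which leaves fewer values, gave 1746, 1218 more positive and 528 more negative. With the replicate block the KO step gave 7798 genes, the WT step 7968 and the difference 4975; besides the call for Ddx25 it added 6 differences among the named genes (Tnp2, Izumo2, Cul4b, Cks2, Oaz3 and Pgk2) and changed no KO call among them. Leaving out each array gave 7487 to 7711 genes in KO (3297 to 3572 higher, 4107 to 4298 lower), 7688 to 7982 in WT (3108 to 3304 higher, 4478 to 4737 lower) and 3730 to 4492 in the difference (2617 to 3136 and 1096 to 1356). Of 126 named genes in the KO step 0 lost a call this way, and of 129 named genes in the difference 9 lost their call at least once. Averaging a gene's probe sets turned the sign of Crem in KO (-0.55) and, in the difference, of Ddx19b (0.36), Azin2 (0.12) and Csf1r (-0.01). It ended the KO calls of Plekha3, Rps3 (-0.45, limma, adjusted p = 0.0534) and Bub1b. In the difference, Azin2 and Csf1r then did not pass (limma, adjusted p = 0.484 and 0.978). Quantile normalization turned the sign of the differences of Tssk3 (0.12), Cby2 (0.22) and Actg2 (0.03). Of these only Cby2 passed (adjusted p = 0.0207, against 0.255 for Tssk3 and 0.786 for Actg2). Among the named genes, 29 differences no longer passed with similar arrays averaged and 6 on centred arrays. After quantile normalization 13 no longer passed, besides those that turned sign, and 27 others came to pass. The causes were not tested. Signals near the added 16 limit what dim genes can show.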
